A study of Homo sapiens with 8 samples.

Results

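The genes described here are 46 genes of DNA replication and of the passage from G1 into S phase, taken as a fixed list of gene symbols. The rule for the list uses no values of these samples, but the list was chosen with earlier results of these data known. The array annotation gave these symbols to 67 of the 22283 probe sets, and to 46 of the 11963 genes that it names by a single symbol. For 45 of the 46 genes, with 64 probe sets, the signal was high enough to test, and PRIM2 was left out as dim. RNA came from a cell line of human lung adenocarcinoma, a non-small cell lung cancer, that the labels do not name; it was grown in DMEM with 10% serum, and the RNA was hybridised to Affymetrix arrays. The 4 groups, of 2 arrays each, were a control (control medium, called DMSO or control in the design), rosiglitazone at 1 µM, carboplatin at 10 µM, and rosiglitazone with carboplatin, all for 24 h. The doses within the combination are not restated in the labels, and no group carries a genetic change. Nothing in the labels says that replicate arrays stem from separate cultures, so each p-value measures the spread between these arrays alone, which may be technical. The title of the series asks about synergy of PPARγ ligands with platinum drugs. The comparisons here ask how far each drug, or both, shifted the expression of replication genes.

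Replication is prepared in G1, when ORC, CDC6 and CDT1 load the MCM2-7 helicase on origins, and geminin (GMNN) blocks reloading later in the cycle. MCM10, CDC45 and the GINS proteins switch the helicase on, and the clamp PCNA, its loader RFC and the polymerases copy the strands. Many of these genes are transcribed in a wave at the G1/S boundary, driven by E2F factors that cyclin E-CDK2 activity releases from RB-family repressors. Rosiglitazone activates the nuclear receptor PPARγ, and carboplatin forms DNA crosslinks, which can activate p53 and its target CDKN1A, an inhibitor of cyclin-dependent kinases. The RNA was from whole cultures, so fewer cells in S phase and less RNA per cell cannot be told apart.

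The promoters of the list are shown because E2F sites are a known feature of many genes of this list of the cycle. Promoter windows from RefSeq (GRCh38.p14), 250 bases before to 50 bases after the gene start, were matched by symbol to 40 of the 46 genes; MCM4, MCM5, POLD3, RPA2, RPA3 and CCNE2 had none. The letters TTTCCCGC, TTTGGCGC, TTTCGCGC and TTTGCCGC, forms of the E2F site, were searched on both strands, and matches that overlap each other were kept. At least 1 match lay in the windows of 20 of the 40 genes (50%), against 1090 of 27305 genes in the table (3.99%). Counted over windows of the same length, the shares were 39.2% of 51 and 3.31% of 35116. A stretch around the match is printed below for 9 genes named in the results, on the gene's own strand, 5′ to 3′, with the match on either strand in capitals.
MCM2 (chr3:127598393-127598444, plus strand): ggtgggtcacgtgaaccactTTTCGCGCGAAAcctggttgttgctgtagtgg
MCM6 (chr2:135876502-135876615, minus strand): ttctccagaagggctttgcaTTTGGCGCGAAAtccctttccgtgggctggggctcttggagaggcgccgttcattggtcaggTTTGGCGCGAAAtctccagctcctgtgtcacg
MCM7 (chr7:100101379-100101426, minus strand): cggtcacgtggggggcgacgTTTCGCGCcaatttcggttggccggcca
CDC6 (chr17:40287866-40287913, plus strand): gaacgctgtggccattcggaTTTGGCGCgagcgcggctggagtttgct
GINS2 (chr16:85688958-85689005, minus strand): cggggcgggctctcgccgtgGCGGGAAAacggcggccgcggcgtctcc
PCNA (chr20:5126654-5126701, minus strand): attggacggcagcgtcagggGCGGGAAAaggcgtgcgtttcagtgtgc
POLA1 (chrX:24693761-24693808, plus strand): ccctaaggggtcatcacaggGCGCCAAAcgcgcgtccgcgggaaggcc
POLE (chr12:132687333-132687380, minus strand): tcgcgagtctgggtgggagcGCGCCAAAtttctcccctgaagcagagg
E2F1 (chr20:33686378-33686438, minus strand): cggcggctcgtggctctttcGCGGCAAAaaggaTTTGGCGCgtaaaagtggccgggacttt
In MCM2 and in MCM6 a match on 1 strand overlaps a match on the other, which gives the 12-base blocks in capitals, and MCM6 has a pair of such blocks, whose 4 matches begin between positions -152 and -86 from the gene start. The MCM2 block begins 2 bases past the start, and the match in GINS2 begins at -31, in POLE at -18 and in PCNA at -59. A second match in the MCM7 window, at -187, is not printed.

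**Figure D1:**
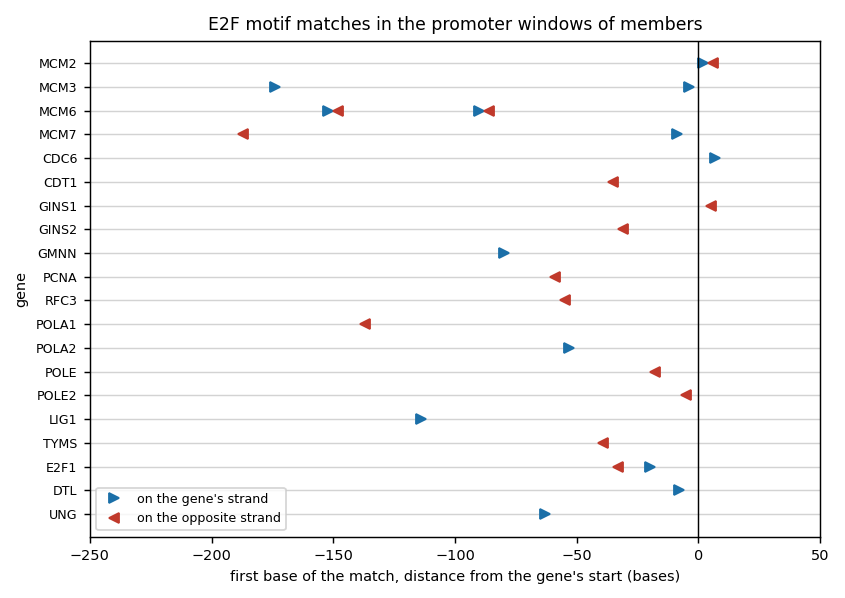
Position of each E2F motif match in the promoter windows of the 20 genes that have one. The horizontal axis is the distance in bases of the first base of the match from the gene start (vertical line), and triangles give the strand. MCM6 has 4 matches, and most genes have 1.

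The CCAAT box, searched as CCAAT on both strands, was in the windows of 25 of the 40 genes (62.5%) against 39.7% of all genes in the table. The letters TTTGAA, the CHR element of many mitotic genes, were in 2 of the 40 (5%) against 18.2%. These shares describe letters in a 300-base window and show neither binding nor a cause. Among the tested genes with a window, the 20 with an E2F match had a median log2 difference from control of -0.13 with rosiglitazone, 0.00 with carboplatin and -0.14 with the combination. The 19 without a match stood at -0.13, -0.11 and -0.12.

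Median signal over all probe sets ran from 36.2 to 54.3 across the 8 arrays, a span of 0.43 on the log2 scale, and the log2 values were therefore quantile normalized. All levels below are normalized log2(signal + 16), 1 probe set per gene, and differences are on that scale, which understates changes of dim genes. Arrays of 1 group correlated at 0.974 to 0.976 and arrays of different groups at 0.964 to 0.984. Of 6 epithelial marker genes 5 were above the filter on dim probe sets, with keratin KRT18 at signals of 4180 to 6120, and EPCAM was below it. Of 4 lung lineage genes 2 were above it, and NKX2-1 and SFTPD, defining genes of many lung adenocarcinomas, were below it. Of 7 markers of other cell types CD3E and COL1A1 were above it, and PTPRC, PECAM1, VWF, COL3A1 and ALB were below. Known responders checked the labels: ANGPTL4, a PPAR target, was at 6.48 and 6.87 in the controls against 9.24 and 9.34 under rosiglitazone. CDKN1A was at 7.43 and 7.62 in control, 9.10 and 9.06 under carboplatin, and 9.34 and 8.75 under both drugs. Of the other genes checked, PLIN2 and PDK4 were 1.67 and 2.16 higher with rosiglitazone than in control. With carboplatin GDF15 was 1.07 ± 0.16 (SE) higher (limma adjusted p = 0.163) and MDM2 0.56 ± 0.37 higher (limma adjusted p = 0.928). The limma adjusted p with the combination was 0.0895 for PDK4, 0.0682 for GDF15 and 0.661 for MDM2.

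None of the 45 listed genes passed the threshold in any comparison. On the same arrays CDKN1A passed it with carboplatin and with the combination, and under the 18 alternatives it passed in 7 and 16. Differences from control lay between -0.44 and 0.36 with rosiglitazone, between -0.41 and 0.38 with carboplatin, and between -0.41 and 0.39 with the combination. The lowest of the 45 differences was that of CHAF1A with rosiglitazone and with the combination, and that of MCM5 with carboplatin. RRM2 and TYMS were nearly level after quantile normalization.

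The test was limma on all probe sets, two-sided, with Benjamini-Hochberg adjustment and a threshold of 0.05 on the adjusted p. With rosiglitazone 0 of the 45 genes passed, against 0.436% of the 8030 genes tested, and 3 were below an unadjusted p of 0.05 against 10.1%. With carboplatin 0 passed against 0.0249%, and 3 were below 0.05 unadjusted against 4.84%. The combination against control gave 0 against 0.274%, and 3 against 8.74% unadjusted. The smallest adjusted p among the 45 genes was 0.36 with rosiglitazone, 0.927 with carboplatin and 0.482 with the combination. At 3 of 45 genes, the unadjusted share was below the background with rosiglitazone and the combination and little above it with carboplatin.

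Comparisons between the treated groups gave the same count. The combination against carboplatin had 0 of 45 against 0.249% of all genes, and 2 below an unadjusted p of 0.05 against 6.41%. The combination against rosiglitazone had 0 against 0.0249%, and 1 against 3.97% unadjusted. The interaction of the drugs, which asks whether their joint effect differs from the sum of the single ones, had 0 against 0%, and 1 against 5.22% unadjusted. For the main effect of rosiglitazone, averaged over both carboplatin states, it was 0 against 1.07%, and 3 against 10.4% unadjusted. The main effect of carboplatin gave 0 against 0.0374%, and 0 against 3.87% unadjusted. A test of any difference among the 4 groups gave 0 against 0.635%, and 1 (RPA1) against 7.57% unadjusted.

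The intervals describe precision from array to array only. Whether the replicates of a group were grown separately is unknown. The intervals therefore set no limit on how large an effect in independent cultures could be. For the probe set of highest mean of each gene, the 95% confidence interval lay within a 2-fold change in either direction. This held for all 45 genes with rosiglitazone, with carboplatin and with the combination against control. Within 1.5-fold lay 33, 36 and 32 of the 45 genes, in the same order. The widest reach was to -0.79 (CDT1) and 0.84 (UNG) with rosiglitazone, to -0.73 (MCM5) and 0.79 (UNG) with carboplatin, and to -0.80 (CDT1) and 0.88 (UNG) with the combination. For the 2 main effects the intervals were narrower, with a median reach of 0.24 on either side against 0.34 for single comparisons, and 43 (rosiglitazone) and 45 (carboplatin) genes lay within 1.5-fold. Intervals are for 1 gene at a time and rest on 4 residual degrees of freedom plus 7.1 from the fit over all probe sets. Further probe sets of a gene were not counted here, and the other E2F1 probe set stood at -0.64 with rosiglitazone and -0.65 with carboplatin. On the signals as deposited, without normalization between arrays, 33, 35 and 39 of the 45 intervals lay within 2-fold.

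**Figure D2:**
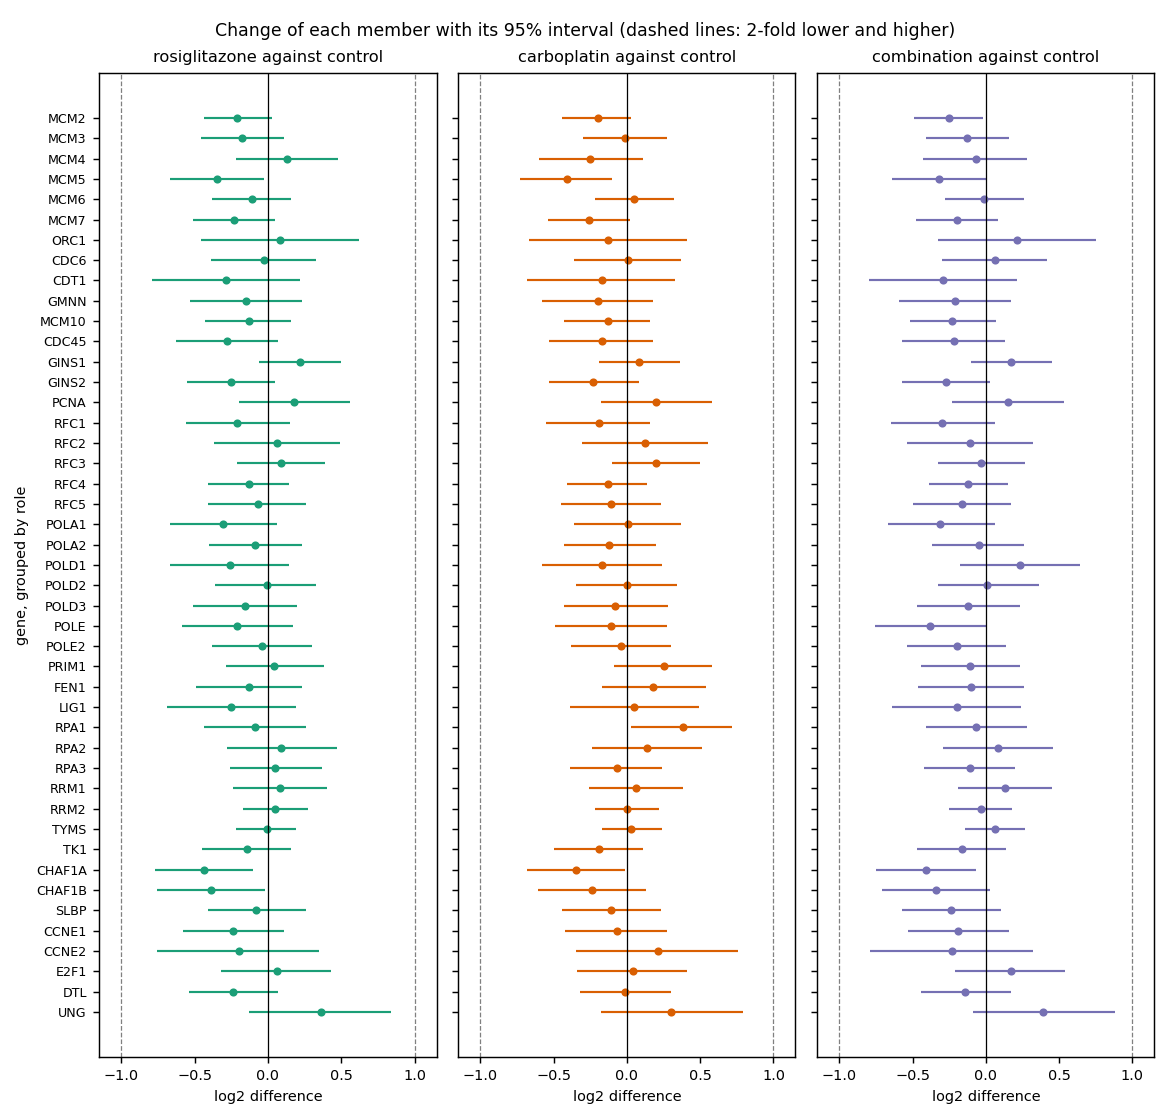
Log2 difference from control of each of the 45 tested genes (points) with its 95% confidence interval (bars) for rosiglitazone, carboplatin and the combination, n = 2 arrays a group. All bars stay between the dashed lines at a 2-fold change, and 3 bars in each panel leave out 0.

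As a list, the 45 genes sat slightly below control. With rosiglitazone 32 of 45 were lower (71.1%) and the median difference was -0.131, while 55.9% of the 8030 genes were lower with a median of -0.034. With carboplatin 27 were lower (60%) with a median of -0.071, against 54.5% and -0.022. With the combination 34 were lower (75.6%) with a median of -0.120, against 53.9% and -0.022. The 3 comparisons share the control arrays and are not independent of each other. By array, the median of the 45 genes was taken relative to each gene's mean over all 8 arrays. It was 0.101 and 0.056 in the controls, -0.027 and -0.007 under rosiglitazone, and 0 and 0.021 under carboplatin. Under both drugs it was -0.093 and -0.004. All 6 treated arrays were thus below both control arrays, with carboplatin 2 the closest. Over all genes tested the order was the same, with 0.022 and 0.025 in the controls and -0.011 to 0.014 on the treated arrays. The SD of the list's median between replicate arrays of a group, on the same scale, was 0.037. Leaving out control 1 brought the carboplatin median to -0.011, and leaving out control 2 brought it to -0.121. The rosiglitazone median was -0.087 without rosiglitazone 2, and the combination median was -0.188 without combination 2.

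The sign of the rosiglitazone shift depended on the scaling. On the deposited signals the median of all probe sets was itself 0.223 higher with rosiglitazone than in control, 0.076 higher with the combination, and at -0.046 with carboplatin. The medians of the 45 genes were then 0.100, -0.041 and -0.107, and only 9 of 45 were lower with rosiglitazone. Relative to the median of all probe sets, the list stood at -0.118, -0.064 and -0.108 after quantile normalization and at -0.123, -0.061 and -0.117 on the deposited signals. Below, directions with rosiglitazone are therefore relative to the bulk of probe sets.

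**Figure D3:**
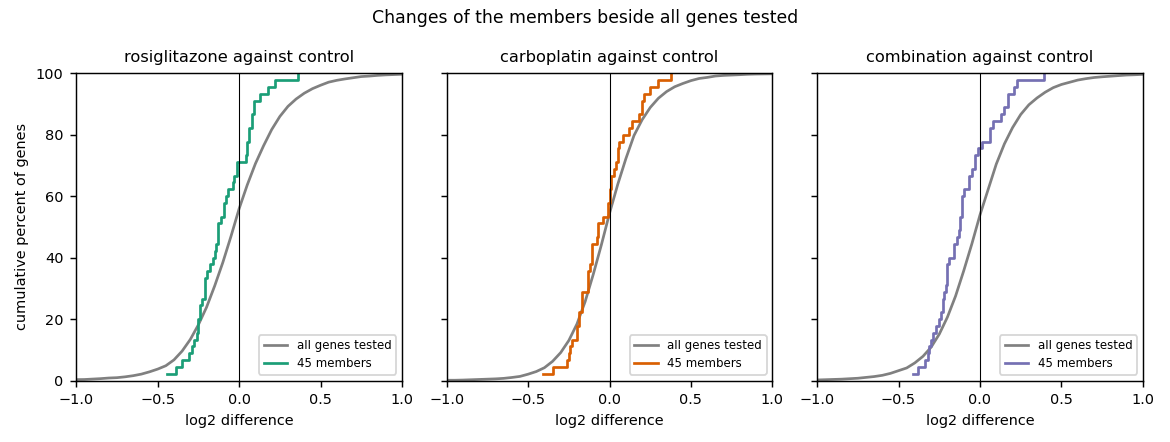
Cumulative percent of genes (vertical axis) against the log2 difference from control (horizontal axis), for the 45 replication and G1/S genes (stepped line) and for all 8030 genes tested (grey). The stepped line lies left of the grey one over much of its middle range, most with rosiglitazone and the combination, and ends inside it at both extremes.

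Non-overlap of arrays was counted as well. Both rosiglitazone arrays were below both controls for 18 of the 45 genes, against 25% of all genes, and above them for 3, against 17.8%. With carboplatin 12 genes were below against 20.7%, and 5 above against 14.5%. With the combination 19 were below against 21.6%, and 2 above against 16.5%. The 4 arrays with rosiglitazone were also set against the 4 without it. POLA1 and POLE were lower without overlap (4.44% of the 45, against 3.5% of all genes) and GINS1 was higher (2.22%, against 3.54%). On the deposited signals the arrays of POLA1, POLE and GINS1 overlapped. All 6 treated arrays lay below both controls for 10 genes (22.2%), against 7.1% of all genes, and above both for 0, against 3.87%. These 10 were MCM2, MCM5, MCM7, MCM10, GINS2, RFC1, RFC4, TK1, CHAF1A and CHAF1B, a count made after the values were seen. It was 4 with median scaling (6.23% of all genes), 0 on the deposited signals (0.661%), 16 without control 1 (20.8%) and 19 without control 2 (17.4%). For MCM7 and RFC1 a further tested probe set lacked this order of all treated arrays below both controls, while that of MCM5 kept it. For CHAF1A a further probe set kept it and another lacked it. PRIM2, the dim primase subunit that was not tested, showed the same order, at 5.61 and 5.76 in control against 5.04 to 5.40 on the treated arrays.

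**Figure D4:**
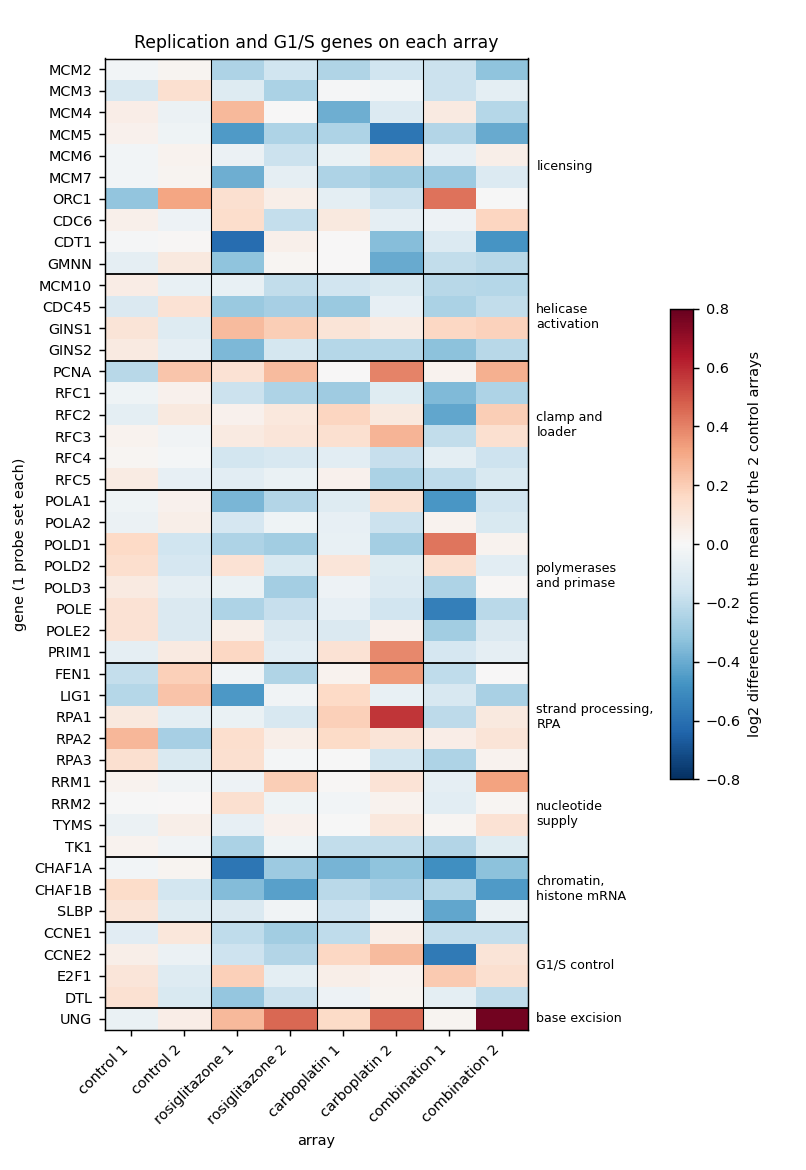
Log2 difference of each gene on each array from the mean of the 2 control arrays, genes grouped by role (rows) and arrays by treatment (columns), with blue for lower and red for higher values. MCM5 and CHAF1A are blue on all 6 treated arrays, RRM2 and TYMS are near white throughout, and UNG is red on the treated arrays to a varying degree.

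Origin licensing genes were lower on balance under each treatment. Of the 10, 8 were lower with rosiglitazone (median -0.164), 8 with carboplatin (-0.185) and 8 with the combination (-0.162), and 0 passed; on the deposited signals the rosiglitazone median turned to 0.066. MCM5, a subunit of the helicase ring, was at 9.72 and 9.65 in the controls, 9.23 and 9.44 under rosiglitazone, 9.44 and 9.11 under carboplatin, and 9.45 and 9.28 under both drugs. All treated arrays were below both controls, while the 3 treated groups overlapped each other. The MCM5 differences were -0.35 ± 0.14 (SE) with rosiglitazone, -0.41 ± 0.14 with carboplatin (limma adjusted p = 0.927) and -0.32 ± 0.14 with the combination. On the deposited signals the rosiglitazone difference was -0.13, and the carboplatin difference was -0.25 without carboplatin 2 and -0.57 without carboplatin 1. A second MCM5 probe set was lower too, by -0.21, -0.32 and -0.37. MCM2, which helps hand parental histones on at the fork, was at 10.54 and 10.58 in the controls, 10.31 and 10.40 under rosiglitazone, 10.32 and 10.40 under carboplatin, and 10.39 and 10.24 under both drugs. Its controls were close together and above all 6 treated arrays, and its largest difference was -0.25 ± 0.11 with the combination (limma adjusted p = 0.555). On the deposited signals the MCM2 difference with rosiglitazone was 0.05.

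MCM7 was at 10.28 and 10.32 in the controls, 9.91 and 10.23 under rosiglitazone, 10.05 and 10.02 under carboplatin, and 10.01 and 10.19 under both drugs. The treated arrays were again below control, by -0.26 ± 0.13 with carboplatin, but a second MCM7 probe set stood at 0.13, 0.00 and -0.19 under the 3 treatments. MCM4 differed in pattern, with 8.86 and 8.76 in the controls, 9.07 and 8.81 under rosiglitazone, 8.42 and 8.70 under carboplatin, and 8.88 and 8.58 under both drugs. Its lowest array was carboplatin 1, the combination arrays overlapped those of carboplatin, and its main effect of carboplatin (-0.23 ± 0.11) had the smallest p of the list in that direction (limma adjusted p = 0.997), or -0.15 without combination 2. MCM4 had 4 probe sets, which differed in sign in all 3 comparisons with control. CDC6, the ATPase that recruits the helicase to ORC, was at 7.96 and 7.88 in the controls, 8.06 and 7.73 under rosiglitazone, 8.0 and 7.85 under carboplatin, and 7.88 and 8.09 under both drugs. The CDC6 groups overlapped throughout, and differences were at most 0.06 ± 0.16 in size. CDT1, the loading factor that geminin holds, had replicate arrays as far apart as 6.89 and 7.54 under rosiglitazone.

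**Figure D5:**
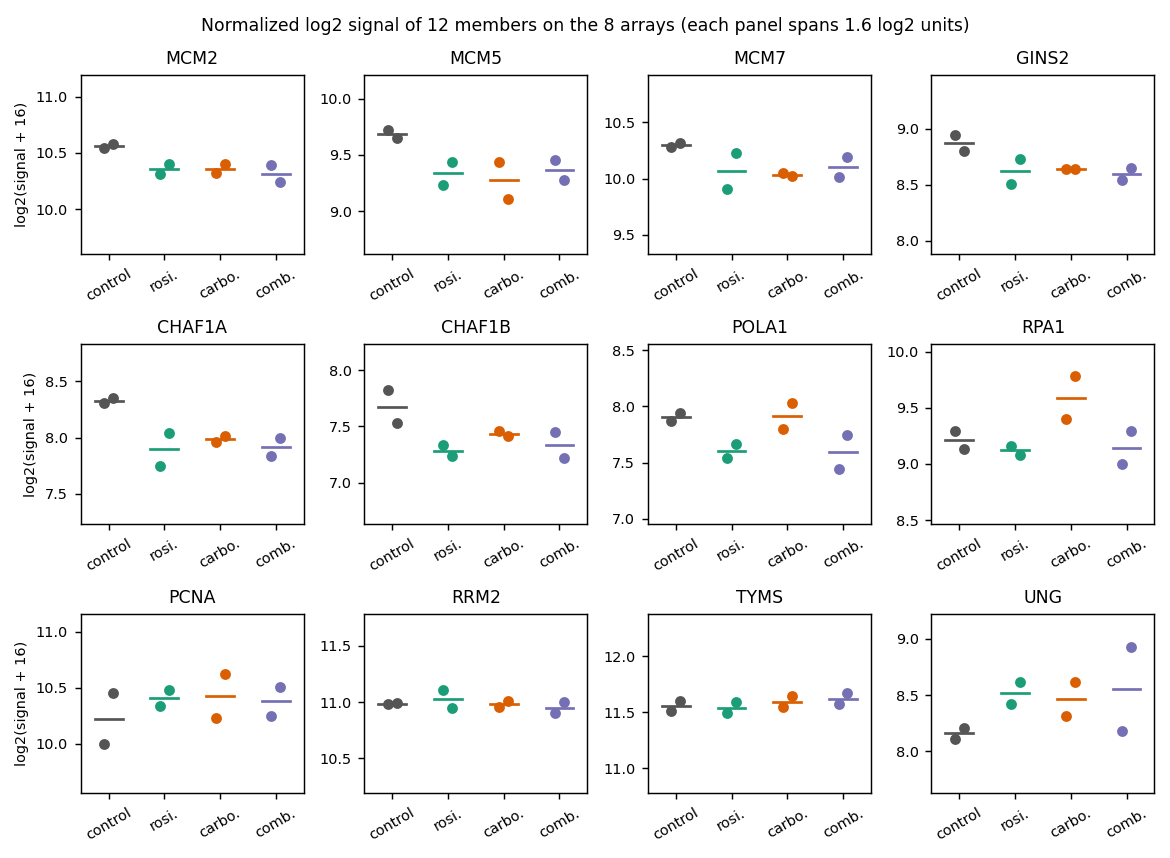
Normalized log2(signal + 16) of 12 of the genes on the 8 arrays (points), with the mean of each group of 2 arrays (bar); every panel spans 1.6 log2 units. In the panels of MCM2, MCM5, MCM7, GINS2, CHAF1A and CHAF1B all treated points are below both control points, RPA1 is highest with carboplatin alone, and RRM2 and TYMS are flat.

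The helicase activation genes MCM10, CDC45 and GINS2 were lower under every treatment and GINS1 was not, with a median over the 4 of -0.191 with rosiglitazone, -0.155 with carboplatin and -0.224 with the combination; on the deposited signals the first became 0.040. CDC45, which completes the active helicase with MCM2-7 and GINS, was at 7.71 and 7.94 in the controls, 7.53 and 7.56 under rosiglitazone, 7.53 and 7.76 under carboplatin, and 7.57 and 7.63 under both drugs. Rosiglitazone and combination arrays were below both controls, and the carboplatin arrays overlapped them. GINS1 and GINS2 encode subunits of 1 complex and went apart. GINS2 was at 8.94 and 8.80 in control against 8.51 to 8.73 on the 6 treated arrays. GINS1 was at 9.05 and 8.84 in the controls, 9.20 and 9.14 under rosiglitazone, 9.05 and 9.01 under carboplatin, and 9.11 and 9.13 under both drugs. After normalization every array with rosiglitazone was thus above every array without it for GINS1. On the deposited signals the arrays overlapped, with combination 1 at 438 and control 1 at 564. The normalized difference was 0.16 ± 0.09 on average (0.36 on the deposited signals, 0.10 without control 2) and did not pass.

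Clamp and loader genes had medians of -0.008 with rosiglitazone, 0.006 with carboplatin and -0.117 with the combination. The first was 0.236 on the deposited signals and 0.015 with median scaling, and the second -0.053 and -0.057. PCNA, the sliding clamp that holds polymerases on DNA and is also a p53 target, was at 10.00 and 10.45 in the controls, 10.34 and 10.48 under rosiglitazone, 10.23 and 10.62 under carboplatin, and 10.25 and 10.51 under both drugs. The gap between the PCNA controls exceeded every group difference, and its difference with rosiglitazone went from 0.18 ± 0.17 to -0.04 without control 1. RFC3, a loader subunit, was at 9.28 and 9.22 in the controls, 9.32 and 9.35 under rosiglitazone, 9.38 and 9.52 under carboplatin, and 9.05 and 9.38 under both drugs. Both single drugs were above control for RFC3 (0.09 ± 0.14 and 0.20 ± 0.14), and the combination arrays spanned the controls. A second RFC3 probe set gave -0.09, 0.11 and -0.36 under the 3 treatments. The loader subunits RFC1 and RFC4 were lower on all treated arrays, with differences of -0.12 to -0.30, but on the deposited signals they were at 0.04 and 0.10 with rosiglitazone. A second tested RFC1 probe set gave 0.18, 0.11 and -0.13 under the 3 treatments. RFC5 had 3 probe sets that spread over 0.74 in the combination comparison, from -0.31 to 0.43.

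Polymerase and primase genes gave 7 of 8 lower with rosiglitazone (median -0.123, turning to 0.121 on the deposited signals), 6 with carboplatin (-0.058) and 6 with the combination (-0.113). POLA1, the catalytic subunit of the polymerase that makes primers, was at 7.87 and 7.94 in the controls, 7.54 and 7.67 under rosiglitazone, 7.80 and 8.03 under carboplatin, and 7.44 and 7.75 under both drugs. The 4 arrays with rosiglitazone were all below the 4 without it after normalization, but not on the deposited signals. The main effect of rosiglitazone was -0.31 ± 0.12 (limma adjusted p = 0.379), or -0.11 on the deposited signals. POLE, the catalytic subunit of the leading-strand polymerase, had the same order, at 7.76 and 7.53 in the controls, 7.40 and 7.46 under rosiglitazone, 7.58 and 7.49 under carboplatin, and 7.10 and 7.43 under both drugs. POLD1, the catalytic subunit of polymerase delta, was at 7.84 and 7.52 in the controls, 7.43 and 7.40 under rosiglitazone, 7.62 and 7.41 under carboplatin, and 8.11 and 7.71 under both drugs. POLD1 was the gene of widest range of group means (0.50), being lowest with rosiglitazone alone and highest with both drugs. The difference of the combination from rosiglitazone was 0.50 ± 0.19 (limma adjusted p = 1). PRIM1, the primase catalytic subunit, was at 8.38 and 8.53 in the controls, 8.62 and 8.37 under rosiglitazone, 8.57 and 8.84 under carboplatin, and 8.32 and 8.38 under both drugs. Carboplatin alone was the high group for PRIM1, 0.25 ± 0.15 above control, or 0.115 without carboplatin 2 and 0.385 without carboplatin 1.

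Among strand processing and single-strand binding genes, RPA1 had the smallest p of the list for any difference among groups (limma adjusted p = 0.616). RPA1, the large subunit of the protein that coats single-stranded DNA, was at 9.29 and 9.13 in the controls, 9.16 and 9.08 under rosiglitazone, 9.40 and 9.78 under carboplatin, and 9.0 and 9.29 under both drugs. The carboplatin arrays alone stood above all others, 0.38 ± 0.16 above control and, as the combination minus carboplatin, -0.45 ± 0.16 (limma adjusted p = 0.621). The carboplatin difference was 0.18 without carboplatin 2 and 0.57 without carboplatin 1. A second RPA1 probe set gave 0.08 for carboplatin against control. FEN1, the nuclease that trims Okazaki fragments, was at 9.36 and 9.74 in the controls, 9.52 and 9.31 under rosiglitazone, 9.58 and 9.89 under carboplatin, and 9.35 and 9.55 under both drugs. All FEN1 groups overlapped the controls, and a second FEN1 probe set gave -0.18 for carboplatin against control where this one gave 0.18. All 5 genes of this role were lower with the combination than with carboplatin (median -0.249), or 3 of 5 on the deposited or median-scaled signals, and 4 of 5 were higher with carboplatin than in control (median 0.138, and 3 of 5 on the deposited signals).

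Of the nucleotide supply genes RRM2 and TYMS were nearly level. RRM2, the regulatory subunit of ribonucleotide reductase, was at 10.98 and 10.99 in the controls, 11.11 and 10.95 under rosiglitazone, 10.96 and 11.01 under carboplatin, and 10.90 and 11.00 under both drugs. TYMS, which makes thymidylate, was at 11.51 and 11.60 in the controls, 11.49 and 11.59 under rosiglitazone, 11.55 and 11.64 under carboplatin, and 11.57 and 11.67 under both drugs. Differences from control were at most 0.05 ± 0.10 for RRM2 and 0.06 ± 0.09 for TYMS, and on the deposited signals 0.27 and 0.24 with rosiglitazone, near the shift of 0.223 of all probe sets. Role medians were 0.018, 0.019 and 0.014 under the 3 treatments, and the second was -0.047 on the deposited signals and -0.052 with median scaling. RRM1, the large subunit of the reductase, was at 9.83 and 9.77 in the controls, 9.76 and 10.0 under rosiglitazone, 9.81 and 9.91 under carboplatin, and 9.73 and 10.12 under both drugs. Its groups overlapped, with differences of 0.08, 0.06 and 0.13 (each ± 0.15), and its second probe set gave 0.31, 0.41 and -0.04. TK1, the salvage kinase for thymidine, was the lower exception, at 8.63 and 8.58 in control and 8.35 to 8.57 on the treated arrays.

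Chromatin assembly genes stood lowest. CHAF1A and CHAF1B, subunits of the factor that places new histones behind the fork, and SLBP, which binds the stem-loop of histone mRNAs, were all lower with rosiglitazone (median -0.388), carboplatin (-0.239) and the combination (-0.338). On the deposited signals the rosiglitazone differences were -0.20 for CHAF1A, -0.15 for CHAF1B and 0.15 for SLBP. CHAF1A was at 8.31 and 8.35 in the controls, 7.75 and 8.04 under rosiglitazone, 7.96 and 8.01 under carboplatin, and 7.84 and 8.0 under both drugs. Its closest treated and control arrays were still apart, and the treated groups overlapped each other. The differences were -0.44 ± 0.15 with rosiglitazone (limma adjusted p = 0.36), -0.35 ± 0.15 with carboplatin and -0.41 ± 0.15 with the combination (limma adjusted p = 0.482). All 3 CHAF1A probe sets were lower in the 3 comparisons, the others by -0.14 to -0.29. CHAF1B was at 7.82 and 7.53 in the controls, 7.33 and 7.24 under rosiglitazone, 7.46 and 7.41 under carboplatin, and 7.45 and 7.22 under both drugs. Its control arrays differed by 0.28, nearly as much as the differences from control of -0.39, -0.24 and -0.34, each ± 0.17. SLBP was at 9.03 and 8.82 in the controls, 8.81 and 8.90 under rosiglitazone, 8.76 and 8.88 under carboplatin, and 8.51 and 8.87 under both drugs, with overlap in every group.

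The G1/S regulators had medians of -0.219 with rosiglitazone (0.012 on the deposited signals), 0.014 with carboplatin (-0.041 on the deposited signals, -0.046 with median scaling) and -0.163 with the combination. CCNE1, the cyclin that drives CDK2 at S phase entry, was at 7.78 and 7.96 in the controls, 7.67 and 7.59 under rosiglitazone, 7.67 and 7.92 under carboplatin, and 7.68 and 7.68 under both drugs. CCNE2, its relative, was at 6.07 and 5.98 in the controls, 5.86 and 5.79 under rosiglitazone, 6.19 and 6.28 under carboplatin, and 5.46 and 6.13 under both drugs. Rosiglitazone arrays were below control for both cyclins, by -0.24 ± 0.16 and -0.20 ± 0.25, and the CCNE2 combination arrays lay on either side of control. E2F1, the transcription factor of the S phase wave and itself an E2F target, was at 7.24 and 7.04 in the controls, 7.33 and 7.06 under rosiglitazone, 7.19 and 7.17 under carboplatin, and 7.35 and 7.27 under both drugs. That probe set changed little, but the other E2F1 probe set gave -0.64, -0.65 and -0.31 against 0.06, 0.04 and 0.17, so the direction for E2F1 depended on the probe set. DTL, the adaptor of the ligase that destroys CDT1, was lower by -0.24 ± 0.14 with rosiglitazone and -0.01 ± 0.14 with carboplatin.

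UNG, the glycosylase that removes uracil from DNA, was the highest of the list against control with rosiglitazone and with the combination. It was at 8.11 and 8.21 in the controls, 8.42 and 8.62 under rosiglitazone, 8.31 and 8.62 under carboplatin, and 8.18 and 8.93 under both drugs. Both single-drug groups were above both controls, and the combination arrays lay far apart, 1 of them between the controls. The differences were 0.36 ± 0.22, 0.30 ± 0.22 and 0.39 ± 0.22, and the limma adjusted p with rosiglitazone was 0.614. The combination difference was 0.015 without combination 2 and 0.77 without combination 1, and the rosiglitazone difference was 0.060 with array brightness as a covariate.

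Where a gene had several tested probe sets, they often differed. Of 15 such genes, all probe sets had the same sign in 7 with rosiglitazone, 10 with carboplatin and 8 with the combination. The widest spread between probe sets of a gene was 0.70 with rosiglitazone and 0.69 with carboplatin (both E2F1). Over all 64 tested probe sets 0 passed, and the medians were -0.098, -0.003 and -0.128. Averaging the probe sets of each gene gave -0.116, -0.039 and -0.127.

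Variation within the list was small beside all genes tested, which were not matched to the list for signal. The pooled standard deviation between replicate arrays had a median of 0.135 over the 45 genes (0.051 to 0.299) against 0.179 over all genes tested. The range of the 4 group means had a median of 0.236 (0.027 to 0.496) against 0.298.

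Genes around the list were counted in the same fit. Of 37 other replication genes tested, 0 passed in any comparison, with 20 lower and a median of -0.009 under rosiglitazone, 21 lower and -0.043 under carboplatin, and 23 lower and -0.065 under both drugs. DTYMK, the thymidylate kinase, had the smallest adjusted p among them for the combination, at -0.40 ± 0.14 with the combination (limma adjusted p = 0.407). Of 23 further G1/S control genes tested, 1 passed, CDKN1A, which rose with carboplatin by 1.55 ± 0.18 (limma adjusted p = 0.0257) and with the combination by 1.52 ± 0.18 (limma adjusted p = 0.00742). On the deposited signals the adjusted p was 0.317 and 0.04, and without carboplatin 1 it was 0.424 and 0.0171. With rosiglitazone alone CDKN1A was at -0.02 ± 0.18. With rosiglitazone 10 of the 23 were higher, and the cyclin genes CCND1 at -0.40 ± 0.18 and CCND3 at -0.43 ± 0.13 (limma adjusted p = 0.25), 2 of 4 genes below an unadjusted p of 0.05, did not pass. MYBL2, an E2F target and activator of late cell cycle genes, was at -0.41 ± 0.18 with carboplatin and 0.77 ± 0.18 higher with the combination than with carboplatin (limma adjusted p = 0.206).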

How the data were processed

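The values deposited by the authors are 1 intensity per probe set on a linear scale; which software, background correction and scaling made them is not given in the sources used. Groups came from the sample titles, and 0 columns were left unused. Signals were taken as log2(signal + 16) and quantile normalized. The 68 control probe sets and those with a mean below the 40th percentile were left out of the tests, leaving 13338. In the platform annotation 19065 of the other probe sets have 1 gene symbol, 1043 several and 2107 none, and only those with 1 were named. The probe set of highest mean stands for a gene, which gave 8030 genes. A limma 3.58.1 model in R 4.3.3 with 1 coefficient per group over all 8 arrays and an intensity trend gave the p-values, adjusted over all probe sets, and was tested on simulated data. Precision is limited by having 2 arrays a group.

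Genes with full values were the 8 of smallest p over the 4 groups, the 3 of smallest p in each direction per comparison with control and main effect, and 14 representatives of the roles; others are named after their values were seen. The list, the roles and the other gene lists were chosen with earlier results of these data known. Alternatives were deposited and median scaling, pseudocounts of 1 and 64, no filter and a 60th percentile filter, no trend, only the groups compared, a replicate block, the mean of a gene's probe sets, leaving out each array, and, chosen after seeing the data, array brightness as a covariate.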

Additional observations from a re-analysis of the deposited data

Results flagged for a closer look

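Rosiglitazone's effect on 2 genes had opposite directions without and with carboplatin, with arrays that did not overlap in either comparison. For POLD1 it was -0.26 against control and 0.40 on top of carboplatin, an interaction of 0.66 (limma adjusted p = 0.821). For RFC3 it was 0.09 against control and -0.23 on top of carboplatin, an interaction of -0.32 (limma adjusted p = 0.864). Neither interaction passed the threshold, and 0% of all 8030 genes passed it. The same opposite order without overlap was seen for 409 of the 8030 genes (5.09%) against 2 of the 45 (4.44%). For RFC3 it rests on a near tie, carboplatin 1 at 9.384 and combination 2 at 9.381. A second RFC3 probe set was lower in both comparisons, by -0.09 and -0.47, so the opposite order depended on the probe set.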

How the results depend on the processing

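Under each alternative in which calls were made, which leaves out the mean of a gene's probe sets, 0 of the 45 genes passed in any comparison, with smallest adjusted p-values (limma) of 0.277 with rosiglitazone, 0.702 with carboplatin and 0.271 with the combination. The median difference of the list is less firm. On the deposited signals it was 0.1 with rosiglitazone, -0.041 with the combination, 0.101 for the combination against carboplatin, -0.134 against rosiglitazone, -0.034 for the interaction, and 0.106 and -0.13 for the main effects of rosiglitazone and carboplatin; 0 genes had all treated arrays below control. Median scaling gave -0.112 with carboplatin, 0.021 for the combination against carboplatin, 0.107 for the interaction, -0.044 and -0.064 for the main effects, and 4 genes with all treated arrays below control. Relative to all probe sets the list moved little between scalings. Leaving out 1 array at a time, the median ranged from -0.147 to -0.087 with rosiglitazone, -0.121 to -0.011 with carboplatin, -0.188 to -0.089 with the combination, -0.091 to -0.013 for the combination against carboplatin, -0.056 to 0.036 against rosiglitazone, and 0.006 to 0.086 for the interaction. The count of genes with all treated arrays below control ranged from 10 to 19, PCNA with rosiglitazone from -0.04 to 0.40 and the carboplatin main effect of UNG from -0.02 to 0.36; the cause was not tested. A group left with 1 array is assumed to vary like the others. The design is balanced, so a replicate block cannot move the medians (-0.131, -0.071 and -0.12), and 0 genes passed with it. Same-numbered arrays correlated at -0.11 to 0.25 in their deviations, so the numbers were not taken to pair the samples. Main effects, the interaction and the test over 4 groups were not run on only the groups compared. Over all probe sets the count past the threshold was 48 with rosiglitazone (3 to 70 over the alternatives), 2 with carboplatin (0 to 2) and 30 with the combination (5 to 46). Of the 45 genes 11 kept their sign with rosiglitazone under each alternative run, 22 with carboplatin and 27 with the combination.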

Other observations

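Mitotic genes, which follow the replication genes in the cycle, were also below control in most cases, and 0 of the 20 tested passed in any comparison by limma with Benjamini-Hochberg adjustment. With rosiglitazone 15 of 20 were lower (median -0.115), with carboplatin 16 (-0.080) and with the combination 17 (-0.222). Over all genes tested 55.9%, 54.5% and 53.9% were lower, with medians of -0.034, -0.022 and -0.022. CDC20, an activator of the ligase that ends mitosis, was at -0.43 ± 0.10 with carboplatin (adjusted p = 0.65) and -0.32 ± 0.10 with the combination (adjusted p = 0.398). CCNB2, a mitotic cyclin, was at -0.40 ± 0.11 with the combination (adjusted p = 0.287), DLGAP5, a spindle protein, at -0.46 ± 0.14, and KIF11, the spindle motor, at -0.52 ± 0.19. At an unadjusted p below 0.05 the counts were 2, 1 and 5 of the 20, all lower, against 10.1%, 4.84% and 8.74% of all genes. Whether mitotic and replication genes differed from each other was not tested.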
